A study of Mus musculus with 22 samples.

Results

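The genes described here are 10 markers of hepatocyte zonation, named as the pericentral genes Glul, Oat, Slc1a2, Tbx3, Axin2 and Rgn and the periportal genes Hal, Sds, Gls2 and Hsd17b13. They were picked by name as known zonation markers, with earlier results of these data known, and all 10 were found among the 55291 genes of the table. They were followed in liver RNA-Seq of 22 male WT C57BL/6 mice, injected intravenously on postnatal day 1, with livers taken 36 hours later. The 6 groups were rAAV9-ST3GAL5.v1, in which the ubiquitous CB promoter drives human ST3GAL5 (n = 3), a vector labelled like it but with E332K in the name (the E332K vector, n = 3), and AAV9.EGFP, with EGFP behind the CB promoter (n = 4). The others were rAAV9-ST3GAL5.v2, which carries the Syn1 promoter of neurons and binding sites for the hepatocyte microRNA miR-122 to limit expression in liver (n = 4), AAV9.empty, the capsid without a transgene (n = 4), and PBS (n = 4). Litters are not given, and the p-values therefore cover only the spread among the livers sampled.

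Blood crosses the liver lobule from the portal vein to the central vein, and hepatocytes divide their work along that path. Hepatocytes near the central vein receive Wnt ligands from the endothelium of that vein, and beta-catenin with TCF factors switches on genes such as glutamine synthetase and Axin2 there, while hepatocytes near the portal vein carry most of amino acid breakdown, urea synthesis and gluconeogenesis, many of whose genes respond to glucagon. In mice this pattern is still being laid down in the first days after birth. RNA from a whole piece of liver holds all zones together, so that fewer hepatocytes of one zone and less RNA per hepatocyte cannot be told apart.

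The 10 genes lie on 7 chromosomes of GRCm38, and GENCODE vM21 lists each as protein coding. Glul is on chromosome 1 (153899944 to 153909723, forward strand), Slc1a2 on chromosome 2 (102658659 to 102790784, forward), Oat on chromosome 7 (132557478 to 132576398, reverse) and Axin2 on chromosome 11 (108920349 to 108950783, forward). Chromosome 5 holds Tbx3 (119670669 to 119684724, forward), Sds (120476526 to 120483932, forward) and Hsd17b13 (103955440 to 103977410, reverse). Chromosome 10 holds Hal (93488768 to 93519304, forward) and Gls2 (128194457 to 128210004, forward), and chromosome X holds Rgn (20549787 to 20562089, forward).

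RefSeq promoter windows (GRCm38.p6) were matched for 6 of the 10 genes, Glul, Oat, Slc1a2, Axin2, Hal and Hsd17b13, and the 250 bases before the start site were searched for ATCAAAG, the recognition motif of the TCF factors that act with beta-catenin, on both strands. The motif stood in the windows of Slc1a2, 207 bases before the start site on the forward strand, and of Hal, 199 bases before it on the reverse strand, where it reads CTTTGAT. It was in 3.23% of 27025 mouse promoter windows of that length, and the match is a description of the letters, not a site of binding. Both windows with the motif are shown, with it in capitals, next to those of the pericentral genes Glul and Axin2, in which those letters were not found. They lie at chr2:102706188-102706437 (Slc1a2, forward strand, a start site inside the GENCODE gene), chr10:93488518-93488767 (Hal, forward), chr1:153899679-153899928 (Glul, forward) and chr11:108920099-108920348 (Axin2, forward). The share of G and C was 44.8% for Slc1a2, 45.6% for Hal, 64.8% for Glul and 69.2% for Axin2.
Slc1a2: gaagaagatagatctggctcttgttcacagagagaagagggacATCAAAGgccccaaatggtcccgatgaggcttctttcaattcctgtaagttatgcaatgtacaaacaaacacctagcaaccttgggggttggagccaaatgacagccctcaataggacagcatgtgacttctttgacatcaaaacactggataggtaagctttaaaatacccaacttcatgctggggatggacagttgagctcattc
Hal: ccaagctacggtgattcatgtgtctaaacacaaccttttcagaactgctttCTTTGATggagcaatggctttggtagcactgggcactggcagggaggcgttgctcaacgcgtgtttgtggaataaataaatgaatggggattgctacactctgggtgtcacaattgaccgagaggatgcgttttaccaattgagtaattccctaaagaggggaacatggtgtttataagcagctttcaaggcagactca
Glul: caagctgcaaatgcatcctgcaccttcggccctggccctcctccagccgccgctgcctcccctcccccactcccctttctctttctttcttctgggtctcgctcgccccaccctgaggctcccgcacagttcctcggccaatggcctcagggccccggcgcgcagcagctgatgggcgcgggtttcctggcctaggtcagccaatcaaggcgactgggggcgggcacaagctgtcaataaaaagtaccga
Axin2: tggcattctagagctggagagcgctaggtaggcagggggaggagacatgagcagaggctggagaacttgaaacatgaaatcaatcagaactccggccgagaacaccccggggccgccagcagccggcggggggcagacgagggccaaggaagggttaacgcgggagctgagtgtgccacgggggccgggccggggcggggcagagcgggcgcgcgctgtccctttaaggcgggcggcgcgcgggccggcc

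Levels between genes were compared in TPM, RSEM's value per transcript length. Over the 22 livers, Hsd17b13 (median 236 TPM, range 169 to 321), Rgn (median 235 TPM, range 126 to 285) and Glul (median 157 TPM, range 106 to 212) were the most abundant of the 10. Oat, Gls2 and Hal had medians of 27.5, 27.2 and 20.0 TPM, and Sds 9.05 TPM. The regulators Axin2 (median 2.37 TPM) and Tbx3 (2.20 TPM) and the transporter Slc1a2 (0.615 TPM) were the least abundant. Slc1a2 rested on 5 to 57 counts per library, against 40 or more for Tbx3 and 56 or more for Axin2. All later levels are CPM, counts scaled to library size with TMM factors over the 22 libraries, which are compared within a gene only.

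The libraries held 17164502 to 24305788 expected counts. Gm47283, a gene that GENCODE vM21 places on chromosome Y, had no count in 9 libraries and 9.98 to 31.7 CPM in the others, although all mice are described as male. No other gene of chromosome Y was examined. All rAAV9-ST3GAL5.v1 livers lacked it, as did AAV9.empty replicate 4, AAV9.EGFP replicates 1, 2 and 4 and rAAV9-ST3GAL5.v2 replicates 3 and 4, whereas every E332K vector and PBS liver had it. What marks this split cannot be told apart from the treatment where rAAV9-ST3GAL5.v1 is set against PBS or the E332K vector. The summed level of 8 hepatocyte markers, none of them at 0, was 88789 to 107082 CPM in rAAV9-ST3GAL5.v1 livers, 109898 to 123496 in E332K vector livers, 132911 to 144341 in AAV9.EGFP livers, 113274 to 140996 in rAAV9-ST3GAL5.v2 livers, 125190 to 148495 in AAV9.empty livers and 135466 to 170219 in PBS livers.

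The first comparison asked how a vector that expresses ST3GAL5 in liver differs from the capsid alone. With rAAV9-ST3GAL5.v1, 8 of the 10 zonation genes were lower than with AAV9.empty and none was higher, on both sides of the lobule: the pericentral Slc1a2, Tbx3, Axin2 and Rgn and all 4 periportal genes. The falls ran between 1.51-fold for Hsd17b13 and 5.12-fold for Slc1a2. Glul and Oat did not pass the test. Among all 14876 genes tested, 14.3% were called lower and 13.8% higher (edgeR's quasi-likelihood test, adjusted p of at most 0.05). The median log2 fold change was −0.85 over the 6 pericentral genes and −1.25 over the 4 periportal genes, against 0.02 over all genes. In the same comparison 6 of the 8 hepatocyte markers were lower and 1 higher, with a median of −0.43, and what part this has in the falls of the zonation genes was not tested. The presence of Gm47283, added as a covariate, left 2 of the 8 calls, Slc1a2 (−2.71, adjusted p = 0.023) and Rgn (−0.89, adjusted p = 0.030), and that fit rests on AAV9.empty replicate 4 as its sole control without the gene. Over all genes the calls in either direction dropped there to 4.13% of 14876. The other 6 stayed negative, with Tbx3 at −1.84 (adjusted p = 0.055), Hsd17b13 at −0.48 (0.095), Hal at −0.85 (0.11), Axin2 at −0.66 (0.30), Gls2 at −0.68 (0.33) and Sds at −0.87 (0.38).

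**Figure D1:**
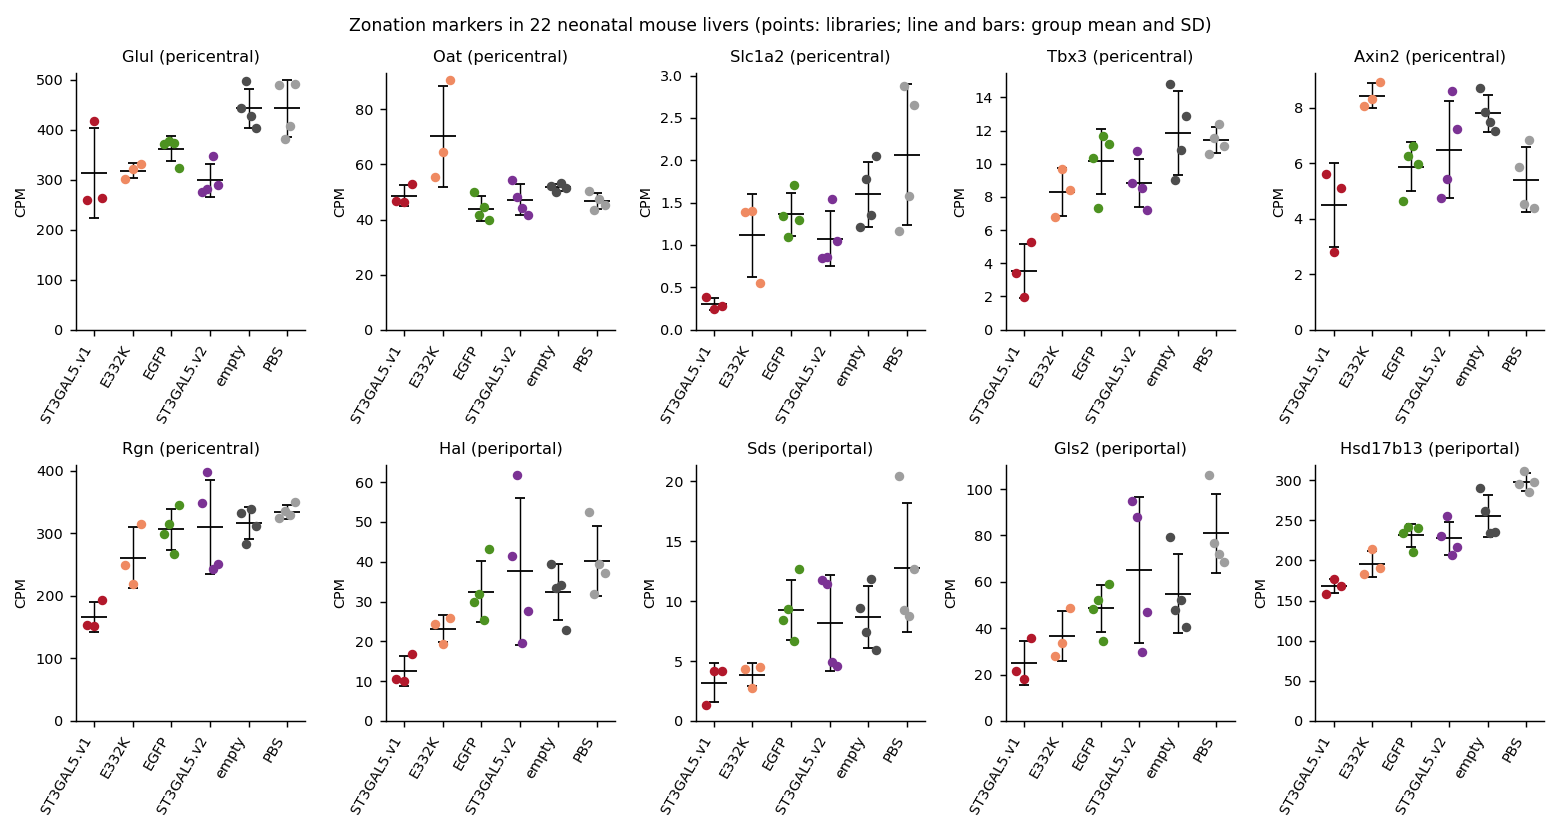
CPM (vertical axes, from 0) of the 10 zonation genes in each library (points), with the mean and SD of each of 6 groups (lines and bars). rAAV9-ST3GAL5.v1 livers lie apart at the bottom for Slc1a2, Tbx3, Rgn, Hal and Hsd17b13, and Glul is lower than in AAV9.empty and PBS in every E332K vector, AAV9.EGFP and rAAV9-ST3GAL5.v2 liver.

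Of the pericentral genes of nitrogen metabolism, Glul encodes glutamine synthetase, which scavenges the ammonia that reaches the last hepatocytes before the central vein. Glul had 261, 418 and 263 CPM in rAAV9-ST3GAL5.v1 livers, 302, 322 and 331 CPM in E332K vector livers, and 372, 378, 374 and 325 CPM in AAV9.EGFP livers. Levels were 276, 282, 348 and 291 CPM in rAAV9-ST3GAL5.v2 livers, 443, 497, 428 and 404 CPM in AAV9.empty livers and 491, 382, 408 and 492 CPM in PBS livers. Every E332K vector, AAV9.EGFP and rAAV9-ST3GAL5.v2 liver was below every AAV9.empty and PBS liver, and of the rAAV9-ST3GAL5.v1 livers replicate 2 alone reached into their range. Against AAV9.empty the log2 fold change of Glul was −0.49 ± 0.17 (SE) for rAAV9-ST3GAL5.v1 (adjusted p = 0.051), −0.48 ± 0.10 for the E332K vector (adjusted p = 0.0069), −0.28 ± 0.08 for AAV9.EGFP (adjusted p = 0.14) and −0.56 ± 0.10 for rAAV9-ST3GAL5.v2 (adjusted p = 0.0090). Glul thus passed for the E332K vector and rAAV9-ST3GAL5.v2 only. Without rAAV9-ST3GAL5.v1 replicate 2 the value for that vector was −0.75 (adjusted p = 0.00050), and with all 3 livers DESeq2 gave −0.50 (adjusted p = 0.0115). For that vector Glul stayed uncalled in 7 of 11 other settings. It also stayed uncalled in 6 of 7 edgeR runs with 1 library left out (adjusted p up to 0.18).

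Oat, ornithine aminotransferase, feeds ornithine into glutamate and is expressed in the same pericentral hepatocytes as Glul. Its levels were 46.6, 46.3 and 53.1 CPM in rAAV9-ST3GAL5.v1 livers, 55.3, 64.6 and 90.6 CPM in E332K vector livers and 50.0, 41.6, 44.6 and 39.7 CPM in AAV9.EGFP livers. In rAAV9-ST3GAL5.v2 livers Oat was at 54.5, 48.3, 44.1 and 41.6 CPM, in AAV9.empty livers at 52.0, 50.0, 53.3 and 51.5 CPM and in PBS livers at 50.4, 43.4, 47.5 and 45.4 CPM. The E332K vector livers were the highest, each above every other liver, and the remaining groups overlapped. The E332K vector stood at 0.44 ± 0.14 (SE) on the log2 scale against AAV9.empty, with an adjusted p of 0.0504 that just missed the threshold. It passed with DESeq2 (adjusted p = 0.021) and without E332K vector replicate 1 (0.59, adjusted p = 0.016). Oat stayed uncalled in 6 of 11 other settings. In 6 of 7 edgeR runs with 1 library left out it was uncalled too (adjusted p up to 0.14). The log2 fold change for rAAV9-ST3GAL5.v1 was −0.08 against AAV9.empty, with a 95% interval of −0.26 to 0.09.

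Slc1a2 encodes the glutamate transporter GLT-1, which in the liver is found on pericentral hepatocytes. It was at 0.387, 0.249 and 0.283 CPM in rAAV9-ST3GAL5.v1 livers, 1.39, 1.40 and 0.548 CPM in E332K vector livers and 1.34, 1.09, 1.71 and 1.29 CPM in AAV9.EGFP livers. The values were 0.851, 0.853, 1.54 and 1.05 CPM in rAAV9-ST3GAL5.v2 livers, 1.21, 1.78, 1.36 and 2.05 CPM in AAV9.empty livers, and 1.17, 2.88, 1.57 and 2.65 CPM in PBS livers. The rAAV9-ST3GAL5.v1 livers lay below all others, and the other 5 groups overlapped their neighbours. Slc1a2 fell 5.12-fold with rAAV9-ST3GAL5.v1 against AAV9.empty (log2 −2.36 ± 0.37 (SE), adjusted p = 0.0018). The call rests on 5 to 8 counts per rAAV9-ST3GAL5.v1 library and was lost with limma on log2(TPM + 1) without a filter (−0.60, adjusted p = 0.053), where the pseudocount exceeds the median level of the gene.

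Axin2 and Tbx3 belong to the Wnt response. Axin2, a scaffold of the beta-catenin destruction complex, is itself switched on by beta-catenin and holds the pathway back. Axin2 had 5.61, 2.79 and 5.10 CPM in rAAV9-ST3GAL5.v1 livers, 8.06, 8.33 and 8.94 CPM in E332K vector livers and 4.64, 6.26, 6.64 and 5.99 CPM in AAV9.EGFP livers. Further levels were 4.73, 5.42, 8.62 and 7.22 CPM in rAAV9-ST3GAL5.v2 livers, 8.71, 7.84, 7.49 and 7.17 CPM in AAV9.empty livers and 5.87, 4.55, 6.86 and 4.38 CPM in PBS livers. AAV9.empty livers were all above PBS livers, so that the position of rAAV9-ST3GAL5.v1 depended on the control: below every AAV9.empty liver but overlapping PBS. The log2 fold change of Axin2 with rAAV9-ST3GAL5.v1 was −0.79 ± 0.23 (SE, adjusted p = 0.030) against AAV9.empty and −0.26 ± 0.27 (adjusted p = 0.52) against PBS. The call against AAV9.empty was lost without AAV9.empty replicate 1 (−0.73, adjusted p = 0.079), replicate 2 (−0.80, adjusted p = 0.063) or replicate 3 (−0.81, adjusted p = 0.061). limma on TPM lost it as well, with either pseudocount and with or without a filter. Over the alternative settings the log2 fold change ran from −0.87 to −0.42.

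Tbx3 is a T-box transcription factor that hepatocytes with active beta-catenin express. Tbx3 was at 3.39, 1.99 and 5.26 CPM in rAAV9-ST3GAL5.v1 livers, at 6.82, 9.68 and 8.40 CPM in E332K vector livers and at 10.3, 7.35, 11.7 and 11.2 CPM in AAV9.EGFP livers. It was at 8.83, 10.8, 8.51 and 7.22 CPM in rAAV9-ST3GAL5.v2 livers, at 14.8, 8.99, 10.8 and 12.9 CPM in AAV9.empty livers and at 10.6, 11.6, 12.4 and 11.05 CPM in PBS livers. Every rAAV9-ST3GAL5.v1 liver was below every other liver. Tbx3 fell 3.31-fold against AAV9.empty (log2 −1.73 ± 0.30 (SE), adjusted p = 0.0032), a call kept whichever library was left out. For the E332K vector the value was −0.52 ± 0.18 (adjusted p = 0.073), and without AAV9.empty replicate 2 it was −0.62 (adjusted p = 0.040). Tbx3 stayed uncalled for that vector in 6 of 7 runs with 1 library left out and in 10 of 11 other settings.

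Rgn, regucalcin, is a calcium-binding lactonase of hepatocytes. Its CPM were 154, 152 and 194 in rAAV9-ST3GAL5.v1 livers, 249, 219.6 and 315 in E332K vector livers and 299, 315, 267 and 345 in AAV9.EGFP livers. They were 349, 397, 243 and 252 in rAAV9-ST3GAL5.v2 livers, 332.2, 282, 339 and 311 in AAV9.empty livers and 324, 336, 329 and 349.5 in PBS livers. The rAAV9-ST3GAL5.v1 livers were again below all others, with no overlap. Rgn fell 1.89-fold against AAV9.empty (log2 −0.92 ± 0.11 (SE), adjusted p = 0.00059), and this call was kept under every alternative run.

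The periportal genes of amino acid breakdown moved in the same direction as each other with rAAV9-ST3GAL5.v1. Hal encodes histidine ammonia lyase, the first step of histidine breakdown. Hal had 10.6, 10.01 and 16.9 CPM in rAAV9-ST3GAL5.v1 livers, 24.3, 19.3 and 25.8 CPM in E332K vector livers and 29.9, 31.8, 25.3 and 43.1 CPM in AAV9.EGFP livers. Hal stood at 41.4, 61.8, 19.6 and 27.6 CPM in rAAV9-ST3GAL5.v2 livers, 39.5, 33.3, 34.1 and 22.7 CPM in AAV9.empty livers and 52.6, 32.0, 39.5 and 37.1 CPM in PBS livers. rAAV9-ST3GAL5.v1 livers were below all others, E332K vector livers overlapped the lowest AAV9.empty liver, and the rAAV9-ST3GAL5.v2 group spanned more than the whole AAV9.empty range. The fall of Hal against AAV9.empty was 2.58-fold (log2 −1.37 ± 0.23 (SE), adjusted p = 0.0025) and held with each library left out. For the E332K vector it was −0.49 ± 0.17 (adjusted p = 0.067), which passed without AAV9.empty replicate 4 (−0.63, adjusted p = 0.0086). Hal stayed uncalled for that vector in 6 of 7 runs with 1 library left out and in 7 of 11 other settings.

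Sds, serine dehydratase, turns serine into pyruvate for gluconeogenesis and responds to glucagon. Sds was at 1.31, 4.14 and 4.17 CPM in rAAV9-ST3GAL5.v1 livers, 4.33, 2.74 and 4.50 CPM in E332K vector livers and 8.39, 9.37, 6.64 and 12.7 CPM in AAV9.EGFP livers. The livers of rAAV9-ST3GAL5.v2 had 11.8, 11.5, 4.89 and 4.58 CPM, those of AAV9.empty 9.40, 7.42, 11.9 and 5.90 CPM and those of PBS 20.5, 9.25, 8.78 and 12.7 CPM. The rAAV9-ST3GAL5.v1 and E332K vector livers overlapped each other and lay below all the rest. Against AAV9.empty, Sds fell 2.68-fold with rAAV9-ST3GAL5.v1 (log2 −1.42 ± 0.38 (SE), adjusted p = 0.022) and 2.25-fold with the E332K vector (−1.17 ± 0.25, adjusted p = 0.0098). The first call was lost without AAV9.empty replicate 1 (−1.38, adjusted p = 0.057) or replicate 3 (−1.23, adjusted p = 0.063), and the second when all groups shared 1 fit (adjusted p = 0.061). With limma on log2(TPM + 1) without a filter both were lost, the second at an adjusted p of 0.092.

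Gls2 is the liver-type glutaminase, which releases ammonia for urea synthesis at the portal end. Gls2 had 21.6, 17.9 and 35.6 CPM in rAAV9-ST3GAL5.v1 livers, 27.8, 33.4 and 48.8 CPM in E332K vector livers and 48.3, 52.3, 34.5 and 59.0 CPM in AAV9.EGFP livers. Its levels in rAAV9-ST3GAL5.v2 livers were 94.9, 87.8, 29.8 and 47.1 CPM, against 79.2, 47.9, 52.1 and 40.4 CPM in AAV9.empty livers and 106, 76.9, 72.2 and 68.7 CPM in PBS livers. rAAV9-ST3GAL5.v1 livers were below every AAV9.empty and PBS liver, and replicate 3 of that group overlapped E332K vector, AAV9.EGFP and rAAV9-ST3GAL5.v2 livers. Gls2 fell 2.18-fold with rAAV9-ST3GAL5.v1 against AAV9.empty (log2 −1.12 ± 0.28 (SE), adjusted p = 0.015), a call lost without rAAV9-ST3GAL5.v1 replicate 1 (−1.03, adjusted p = 0.069), with a robust dispersion (adjusted p = 0.053) and with limma without a filter (−0.96, adjusted p = 0.076).

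Hsd17b13 encodes a hydroxysteroid dehydrogenase of the lipid droplet and is the member of the periportal set outside amino acid metabolism. It measured 159, 177 and 168 CPM in rAAV9-ST3GAL5.v1 livers, 183, 214 and 190.3 CPM in E332K vector livers and 234, 242, 211 and 239.7 CPM in AAV9.EGFP livers. There were 231, 255, 207 and 216 CPM in rAAV9-ST3GAL5.v2 livers, 289.6, 261, 234 and 235 CPM in AAV9.empty livers and 295, 312, 285 and 298 CPM in PBS livers. rAAV9-ST3GAL5.v1 livers were the lowest and did not overlap any other group. Hsd17b13 fell 1.51-fold with rAAV9-ST3GAL5.v1 against AAV9.empty (log2 −0.60 ± 0.10 (SE), adjusted p = 0.0022) and 1.30-fold with the E332K vector (−0.38 ± 0.10, adjusted p = 0.028). The second call was lost without E332K vector replicate 1 (−0.33, adjusted p = 0.11) or 3 (−0.35, adjusted p = 0.062) and without AAV9.empty replicate 1 (−0.31, adjusted p = 0.089) or 2 (−0.36, adjusted p = 0.071). It was also lost in edgeR with the replicate number as a block (adjusted p = 0.077).

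**Figure D2:**
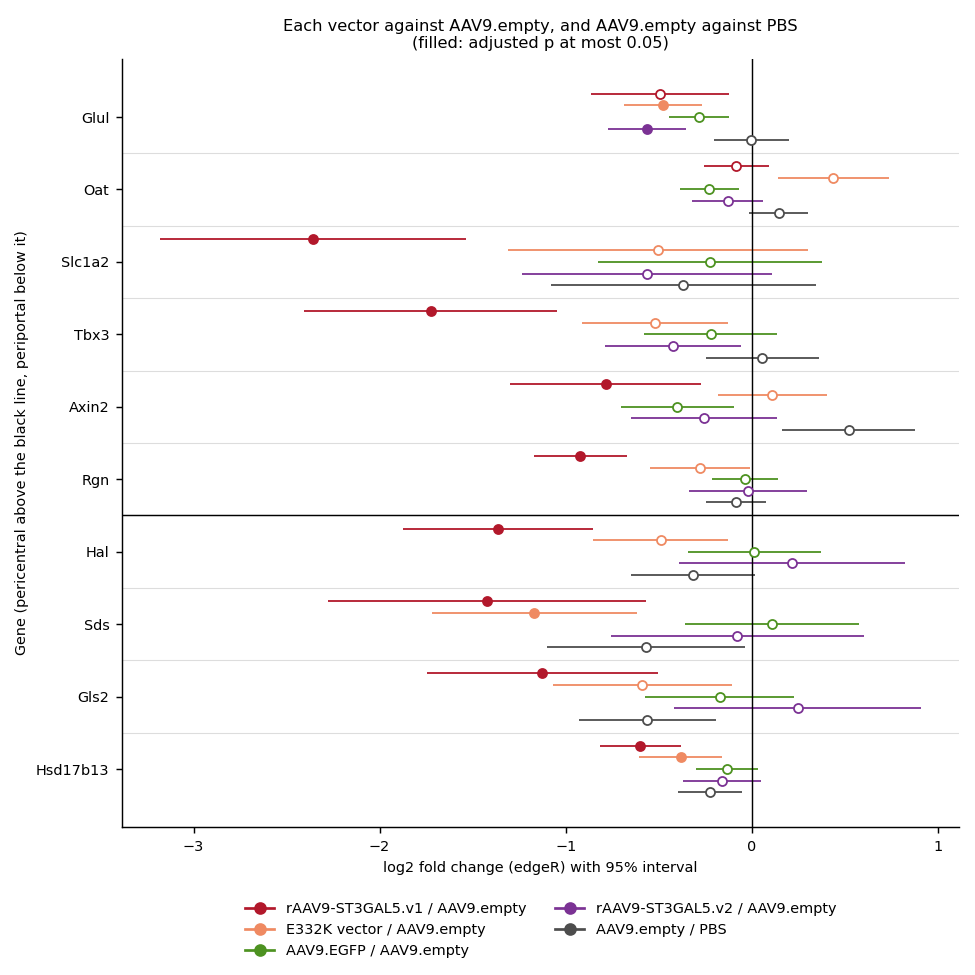
log2 fold changes (horizontal axis) with 95% intervals of the 10 genes for each vector against AAV9.empty and for AAV9.empty against PBS, filled where the adjusted p was at most 0.05. The rAAV9-ST3GAL5.v1 points are filled for 8 genes, between −0.60 and −2.36, and Glul is to the left of 0 for all 4 vectors.

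The E332K vector, set against AAV9.empty, asked how livers given that vector differ from those given the capsid alone. Of the 10 genes 3 were lower, Glul, Sds and Hsd17b13, with the values given above, and none was higher. Over the 14759 genes tested, 7.09% were lower and 7.93% higher. Slc1a2 was at −0.50 (95% interval −1.31 to 0.30), Axin2 at 0.11 (−0.18 to 0.40), Rgn at −0.28 (−0.55 to −0.01) and Gls2 at −0.59 (−1.07 to −0.11), with adjusted p of 0.39, 0.63, 0.15 and 0.095. DESeq2 called 5 members, with Oat higher and Hal lower in addition. Leaving out E332K vector replicate 3 brought Rgn (−0.43, adjusted p = 0.020) and Gls2 (−0.84, adjusted p = 0.029) past the threshold. Both stayed uncalled with any other library left out, and of 11 other settings Rgn was uncalled in 11 and Gls2 in 10.

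AAV9.EGFP against AAV9.empty asked what a CB vector with another transgene does. None of the 10 genes was called by edgeR, 3 were at an unadjusted p under 0.05, limma on log2(TPM + 1) called 0 of the 9 that passed its filter, and DESeq2 called 1, Glul (−0.29, adjusted p = 0.018). The background was also small, with 0.0553% of 14473 genes lower and 0.387% higher. Axin2 was at −0.40 ± 0.14 (SE, adjusted p = 0.26), with AAV9.EGFP livers all below AAV9.empty livers, and Oat at −0.23 ± 0.07 (adjusted p = 0.22). The periportal genes Hal (0.01, 95% interval −0.35 to 0.37), Sds (0.11, −0.36 to 0.58), Gls2 (−0.17, −0.57 to 0.23) and Hsd17b13 (−0.13, −0.30 to 0.03) had intervals that include 0.

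rAAV9-ST3GAL5.v2 against AAV9.empty asked whether the liver-detargeted vector differs from the capsid. Glul was the 1 member called, lower by 1.48-fold, and no member was higher. Of 14558 genes tested, 2.5% were lower and 2.88% higher. Glul stayed called under each alternative and with each library left out. The log2 fold changes of the periportal genes were 0.22 for Hal (95% interval −0.39 to 0.82), −0.08 for Sds (−0.76 to 0.60), 0.25 for Gls2 (−0.42 to 0.91) and −0.16 for Hsd17b13 (−0.37 to 0.05). Those of the other pericentral genes were −0.56 for Slc1a2 (−1.24 to 0.11), −0.42 for Tbx3 (−0.79 to −0.06), −0.26 for Axin2 (−0.65 to 0.14), −0.13 for Oat (−0.32 to 0.06) and −0.02 for Rgn (−0.34 to 0.30).

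AAV9.empty against PBS asked what the capsid alone does. edgeR and limma called none of the 10 and DESeq2 none of the 9 to which it gave an adjusted p (Slc1a2 had none), and 4 were at an unadjusted p under 0.05 in edgeR. Among 14476 genes, 0.207% were lower and 0.104% higher. The 4 were Gls2 (−0.56 ± 0.17 (SE), adjusted p = 0.18), Axin2 (0.52 ± 0.17, adjusted p = 0.20), Hsd17b13 (−0.23 ± 0.08, adjusted p = 0.245) and Sds (−0.57 ± 0.25, adjusted p = 0.36). Hal was at −0.32 ± 0.16 (adjusted p = 0.42), and Glul at 0.00 with a 95% interval of −0.20 to 0.20. Gls2 was called without AAV9.empty replicate 1, its highest AAV9.empty liver (−0.79, adjusted p = 0.032). It stayed uncalled in 7 of 8 runs with 1 library left out and in 9 of 11 other settings.

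rAAV9-ST3GAL5.v1 was then set against each of the other groups, comparisons that all share its 3 livers. Against PBS, 7 members were lower and none higher, with 12.7% of 14892 genes lower and 12.4% higher. The periportal falls were 3.21-fold for Hal (log2 −1.68 ± 0.22 (SE), adjusted p = 0.00049), 3.96-fold for Sds (−1.99 ± 0.41, adjusted p = 0.0059), 3.21-fold for Gls2 (−1.68 ± 0.23, adjusted p = 0.00076) and 1.77-fold for Hsd17b13 (−0.82 ± 0.09, adjusted p = 0.00019). The pericentral falls were 6.63-fold for Slc1a2 (adjusted p = 0.0021), 3.18-fold for Tbx3 (adjusted p = 0.0017) and 2.01-fold for Rgn (adjusted p = 0.00022). Glul was at −0.49 (adjusted p = 0.064), and at −0.75 without rAAV9-ST3GAL5.v1 replicate 2 (adjusted p = 0.00115). It stayed uncalled in 7 of 10 other settings and in 6 of 7 runs with 1 library left out.

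Against AAV9.EGFP, 7 genes were lower and none higher, with 15.1% of 14875 genes lower and 12.7% higher. Slc1a2 was 4.41-fold lower (adjusted p = 0.0026), Tbx3 2.86-fold (adjusted p = 0.0063), Rgn 1.86-fold (adjusted p = 0.0012) and Hal 2.62-fold (adjusted p = 0.0029). Sds was 2.91-fold lower (adjusted p = 0.015), Gls2 1.95-fold (adjusted p = 0.019) and Hsd17b13 1.39-fold (adjusted p = 0.0032). The call of Gls2 was lost without rAAV9-ST3GAL5.v1 replicate 1 (−0.85, adjusted p = 0.080) or AAV9.EGFP replicate 2 (−0.93, adjusted p = 0.051) or 4 (−0.85, adjusted p = 0.053), and Glul was called without rAAV9-ST3GAL5.v1 replicate 2 (−0.47, adjusted p = 0.0042). In 6 of 7 runs with 1 library left out and in 11 of 11 other settings Glul was uncalled. Gls2 also lost its call with the replicate number as a block and with limma without a filter. Gm47283 as a covariate kept all 7 calls, and 3101 of 14875 genes were called there in either direction. That fit rests on AAV9.EGFP replicate 3 as its sole liver with the gene.

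Against rAAV9-ST3GAL5.v2, which delivers the same cDNA with expression held off in hepatocytes, 6 members were lower, Slc1a2 (−1.77 ± 0.41 (SE) on the log2 scale), Tbx3 (−1.29 ± 0.30), Rgn (−0.88 ± 0.19), Hal (−1.57 ± 0.37), Gls2 (−1.35 ± 0.40) and Hsd17b13 (−0.42 ± 0.10), with adjusted p of 0.012 to 0.037. None was higher, and 11.3% of 14906 genes were lower and 12.1% higher. Sds was at −1.33 (adjusted p = 0.072), although the groups did not overlap. Glul was at 0.09, with a 95% interval of −0.31 to 0.49. Without rAAV9-ST3GAL5.v1 replicate 1 the count was 1, Slc1a2, as the 5 other genes moved to adjusted p of 0.054 to 0.13 with log2 fold changes of −0.38 to −1.46. The count was 4 without rAAV9-ST3GAL5.v1 replicate 2, as Slc1a2 (−1.65, adjusted p = 0.056) and Gls2 (−1.16, adjusted p = 0.10) lost their calls, and 4 without rAAV9-ST3GAL5.v2 replicate 1, as Gls2 (−1.13, adjusted p = 0.094) and Hsd17b13 (−0.42, adjusted p = 0.055) did. Gls2 was also lost without rAAV9-ST3GAL5.v2 replicate 2 (−1.16, adjusted p = 0.092) and with a robust dispersion (adjusted p = 0.10). Gm47283 as a covariate left 2 calls, Slc1a2 (−2.03) and Rgn (−0.55), where 10.7% of all 14906 genes were called in either direction, and the 4 others stayed negative, between −0.31 for Hsd17b13 and −1.12 for Tbx3 (adjusted p of 0.071 to 0.21).

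Against the E332K vector, 5 members were lower, Slc1a2 (−1.84 ± 0.48 (SE) on the log2 scale), Tbx3 (−1.20 ± 0.32), Axin2 (−0.89 ± 0.26), Rgn (−0.63 ± 0.17) and Hal (−0.87 ± 0.22), with adjusted p of 0.027 to 0.043. None was higher, and 10% of 14742 genes were lower and 9.55% higher. Of the periportal genes, Sds (−0.25, 95% interval −1.20 to 0.70), Gls2 (−0.53, −1.17 to 0.11) and Hsd17b13 (−0.21, −0.46 to 0.05) did not pass, nor did Glul (−0.01, −0.43 to 0.42). Oat did not pass either (−0.51, −0.92 to −0.10, adjusted p = 0.077). It stayed uncalled in 6 of 10 other settings and in 6 of 6 runs with 1 library left out. With 3 livers a side these calls depended on single libraries: the count was 0 without rAAV9-ST3GAL5.v1 replicate 1 or E332K vector replicate 1, 1 and 2 without E332K vector replicates 3 and 2, and 3 without rAAV9-ST3GAL5.v1 replicate 2. Without rAAV9-ST3GAL5.v1 replicate 3, Slc1a2 lost its call (−1.77, adjusted p = 0.072) and Gls2 gained one (−0.86, adjusted p = 0.033).

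**Figure D3:**
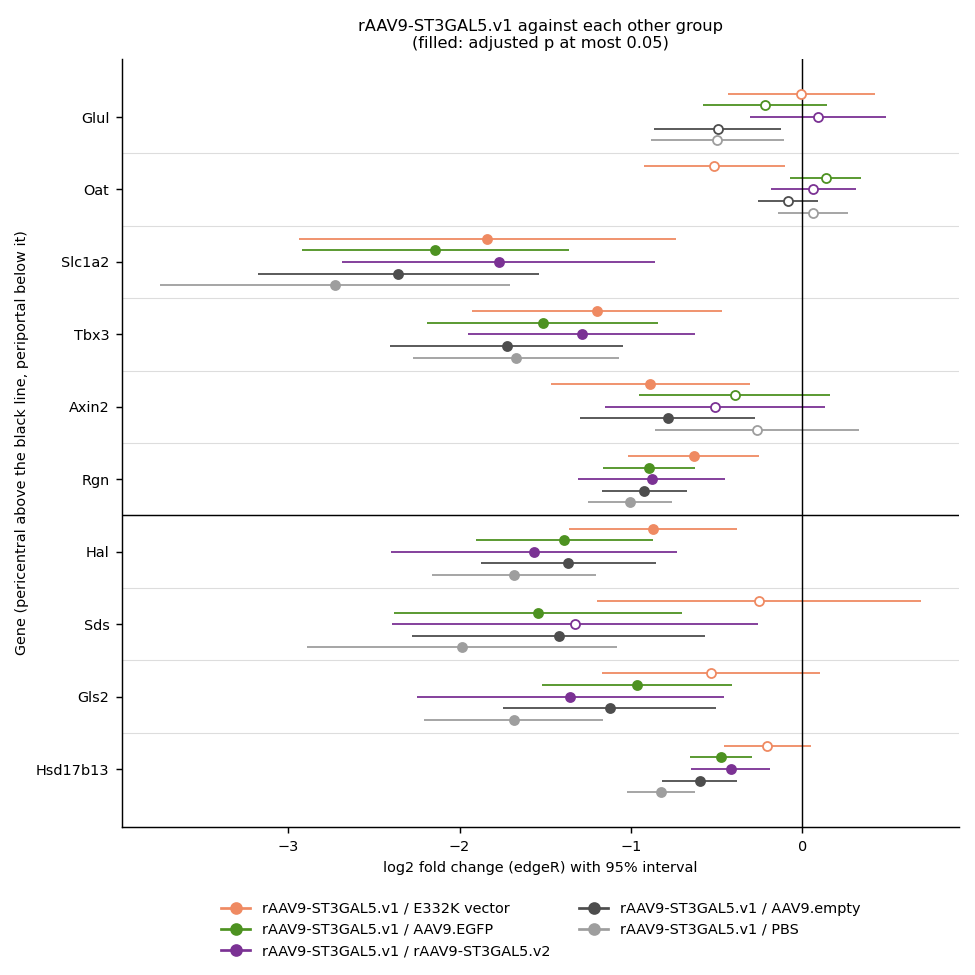
log2 fold changes (horizontal axis) with 95% intervals of rAAV9-ST3GAL5.v1 against each of the other 5 groups, which share its 3 livers, filled where the adjusted p was at most 0.05. Slc1a2, Tbx3, Rgn and Hal are filled in all 5 comparisons and Glul and Oat in none.

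By group means, rAAV9-ST3GAL5.v1 was the lowest of the 6 groups for 8 of the 10 members, as it was for 29.4% of 15873 genes. For 5 of the 10, Slc1a2, Tbx3, Rgn, Hal and Hsd17b13, its livers were below all others, as they were for 7.39% of those genes, and for Axin2, Sds and Gls2 it overlapped the next group. PBS was the highest for Glul, Slc1a2, Rgn and the periportal genes Hal, Sds, Gls2 and Hsd17b13, in each of which it overlapped the next group. The 2 exceptions to the low place of rAAV9-ST3GAL5.v1 were the pericentral nitrogen genes. Glul averaged 314 CPM with rAAV9-ST3GAL5.v1, 319 with the E332K vector, 362 with AAV9.EGFP and 299 with rAAV9-ST3GAL5.v2, groups that overlapped their neighbours, and 443 CPM with both AAV9.empty and PBS, apart from AAV9.EGFP. For Oat the E332K vector was highest at 70.2 CPM, apart from AAV9.empty at 51.7 CPM, and the other groups lay between 44.0 and 48.7 CPM with overlaps.

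Within groups, the periportal genes of amino acid breakdown often varied together. In rAAV9-ST3GAL5.v2 livers the highest library was 3.18 times the lowest for Gls2, 3.16 times for Hal and 2.58 times for Sds, next to 1.82 for Axin2, 1.81 for Slc1a2, 1.63 for Rgn, 1.49 for Tbx3, 1.31 for Oat, 1.26 for Glul and 1.23 for Hsd17b13. Replicates 1 and 2 of that group were high in Hal, Sds and Gls2, and also in the pericentral Rgn, and replicates 3 and 4 low, and Axin2 was the other way round. Cell type markers split these livers too, with summed hepatocyte markers of 133970 and 140996 CPM in replicates 1 and 2 and 113274 and 118243 CPM in replicates 3 and 4, and summed erythroid markers of 24039 and 18283 CPM in replicates 1 and 2 and 35947 and 34088 CPM in replicates 3 and 4. The library highest in Gls2 was also the highest in Hal in 5 of the 6 groups and in Sds in 5 of 6, and the lowest library was shared by Gls2 and Hal in 4 and by Gls2 and Sds in 2. Periportal Hsd17b13 shared its highest library with Gls2 in AAV9.empty only, and how often other pairs of genes do so was not examined. Replicates 3 and 4 of rAAV9-ST3GAL5.v2 are also those without Gm47283, as is AAV9.empty replicate 4, the lowest AAV9.empty liver for Gls2, Hal and Sds. AAV9.EGFP replicate 3, the lowest of its group for these genes, has Gm47283. The part of these splits in the differences was not tested.

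**Figure D4:**
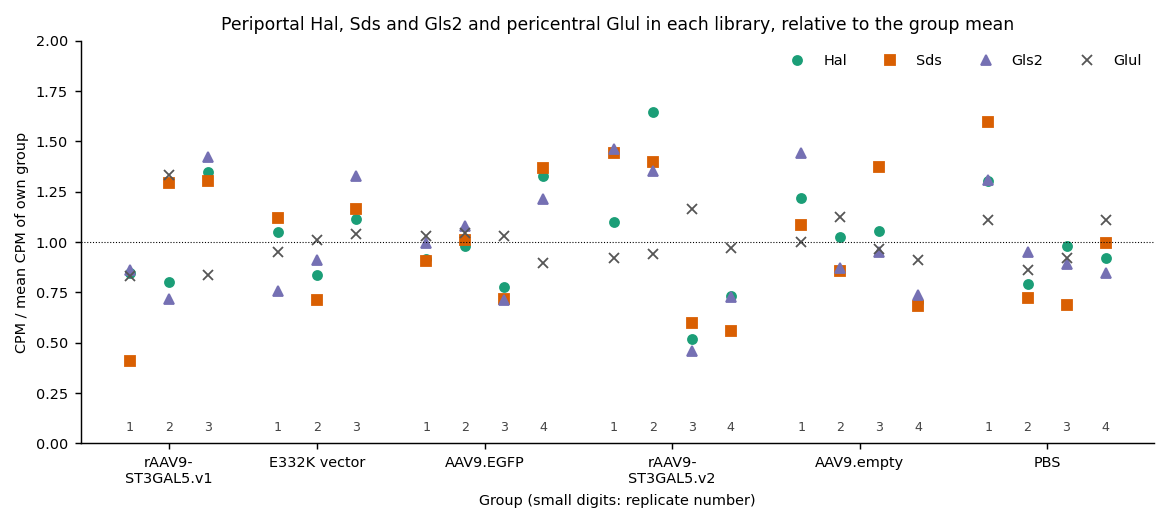
CPM of Hal, Sds, Gls2 and Glul in each library divided by the mean of its own group (vertical axis, from 0), with replicate numbers as small digits, which have no order. Hal, Sds and Gls2 are above 1 in replicates 1 and 2 of rAAV9-ST3GAL5.v2 and below it in replicates 3 and 4, with Glul closer to 1 in each of these 4 livers.

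Other zoned genes were read from lists of 12 pericentral and 16 periportal hepatocyte genes, all of which passed the filter. These lists too were chosen with earlier results of these data known. With rAAV9-ST3GAL5.v1 against AAV9.empty, 9 of the 12 pericentral genes were lower and none higher (median log2 fold change −0.93), and 10 of the 16 periportal genes were lower and 1 higher (median −0.83). Over all genes 14.3% were lower and 13.8% higher. Cyp2e1, the cytochrome P450 of ethanol metabolism, averaged 268 ± 50.2 CPM in rAAV9-ST3GAL5.v1 livers (SD, n = 3) and 1322 ± 189 CPM in AAV9.empty livers (SD, n = 4; log2 −2.30, adjusted p = 7.05e-05). Cyp1a2, a cytochrome P450 of caffeine and drug metabolism, was at −3.07 (adjusted p = 0.00022), the secreted protein Lect2 at −0.81 (adjusted p = 0.00015) and the ammonium transporter Rhbg at −0.91 (adjusted p = 0.0022). Rhbg, like Axin2, depended on the control, with 13.96 CPM in rAAV9-ST3GAL5.v1 livers, 26.4 CPM in AAV9.empty livers and 15.5 CPM in PBS livers, and a value of −0.15 (adjusted p = 0.54) for rAAV9-ST3GAL5.v1 against PBS. On the periportal side the mitochondrial aldehyde dehydrogenase Aldh1b1 was at −1.37 (adjusted p = 0.0011), Uroc1, the step of histidine breakdown after Hal, at −0.90 (adjusted p = 0.0031), Asl of the urea cycle at −0.80 (adjusted p = 0.0044) and the cytochrome P450 Cyp2f2 at −1.66 (adjusted p = 0.0057). The gene that was higher was Ctsc, a lysosomal protease that also matures the proteases of neutrophils (0.56, adjusted p = 0.045). In the same comparison 6 of 7 neutrophil markers were higher, their sum being 1506 to 1748 CPM in rAAV9-ST3GAL5.v1 livers and 963 to 1013 CPM in AAV9.empty livers. With the E332K vector 3 of the 7 were higher, and Ctsc was lower. What part neutrophils have in the level of Ctsc was not tested.

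With the E332K vector 3 of the 12 pericentral genes were lower and 1 higher, and 4 of the 16 periportal genes were lower and 1 higher. Over all genes 7.09% were lower and 7.93% higher. Cyp1a2 (−2.36, adjusted p = 3.2e-05), Cldn2, a claudin of tight junctions (−1.59, adjusted p = 0.00017), and Lect2 (−0.34, adjusted p = 0.037) were lower, and Cyp27a1 of bile acid synthesis was higher (0.65, adjusted p = 0.036). Ftcd, the last step of histidine breakdown, was higher (0.93, adjusted p = 0.00014), and Aldh1b1 (−1.03, adjusted p = 0.00080), Ctsc (−0.65, adjusted p = 0.0017), Cdh1, the adhesion protein E-cadherin (−0.43, adjusted p = 0.015), and Cps1, the entry enzyme of the urea cycle (−0.42, adjusted p = 0.0405), were lower.

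With rAAV9-ST3GAL5.v2 the pericentral Cyp1a2 (−1.51, adjusted p = 0.014), Cyp2e1 (−0.48, adjusted p = 0.028) and Cldn2 (−1.02, adjusted p = 0.049) were lower, 3 of 12 with none higher. Of the 16 periportal genes, Ftcd (0.66, adjusted p = 0.0033) and Pck1, the gluconeogenic enzyme (0.58, adjusted p = 0.023), were higher and Ctsc (−0.63, adjusted p = 0.0019) lower. Over all genes 2.5% were lower and 2.88% higher with rAAV9-ST3GAL5.v2. AAV9.EGFP changed 1 gene of each list, Cldn2 (−0.59, adjusted p = 0.014) and Ftcd (0.52, adjusted p = 0.0022), and AAV9.empty against PBS changed Rhbg alone (0.76, adjusted p = 0.048). The shares over all genes were 0.0553% lower and 0.387% higher for AAV9.EGFP, and 0.207% lower and 0.104% higher for AAV9.empty against PBS. Cldn2, singled out after its values were seen, passed for all 4 vectors against AAV9.empty, the value for rAAV9-ST3GAL5.v1 being −1.10 (adjusted p = 0.0049), and its mean was 31.2 CPM with rAAV9-ST3GAL5.v1, 22.3 with the E332K vector, 44.3 with AAV9.EGFP, 32.8 with rAAV9-ST3GAL5.v2, 67.0 with AAV9.empty and 76.5 with PBS. The 4 comparisons share the AAV9.empty livers. Ftcd was called higher for 3 vectors, and its value for rAAV9-ST3GAL5.v1 was −0.15 (adjusted p = 0.46).

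**Figure D5:**
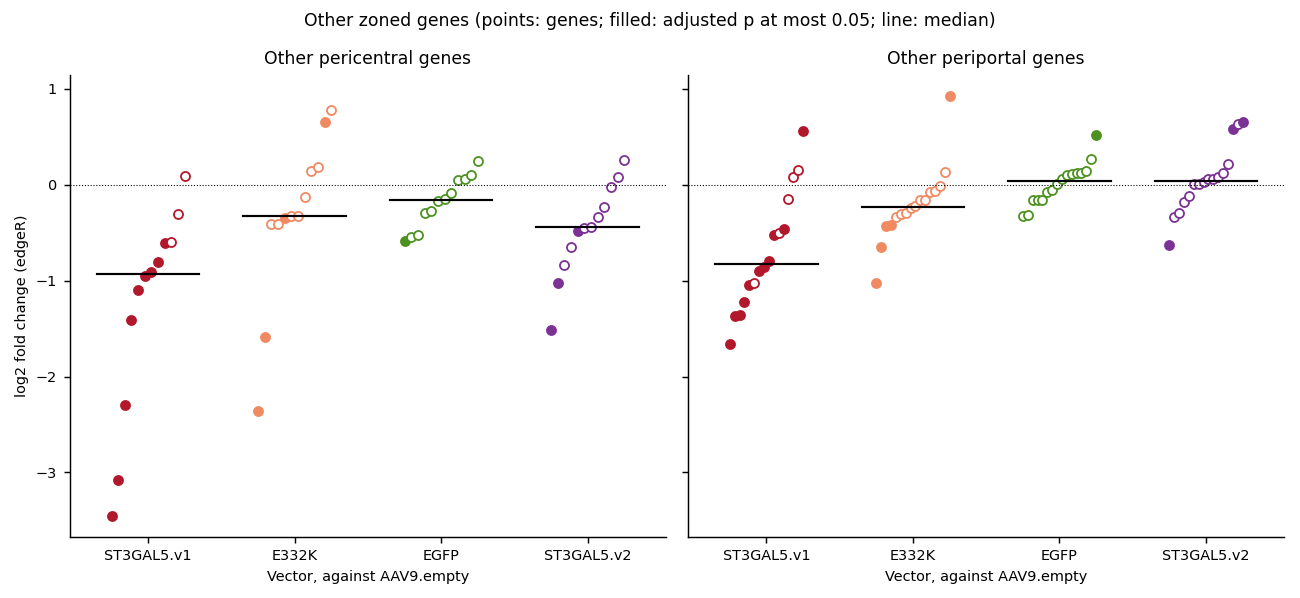
log2 fold changes against AAV9.empty (vertical axis) of 12 other pericentral genes (left) and 16 other periportal genes (right) for each of 4 vectors, filled where the adjusted p was at most 0.05, with the median as a line. For rAAV9-ST3GAL5.v1 the medians are −0.93 and −0.83, and most points lie below 0 on both sides.

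The genes that carry or answer the Wnt signal were read next, from lists that hold none of the 10 markers. Of 12 beta-catenin targets and feedback genes, 10 passed the filter with rAAV9-ST3GAL5.v1 against AAV9.empty, 3 were lower and 1 higher, with a median of 0.09. The lower ones were the secreted Wnt deacylase Notum (−1.24, adjusted p = 0.0020) and the ubiquitin ligases Rnf43 (−1.17, adjusted p = 0.0028) and Znrf3 (−0.44, adjusted p = 0.022), which remove Wnt receptors, and the higher one was Myc (0.92, adjusted p = 0.0024). Against PBS the balance of the same list with rAAV9-ST3GAL5.v1 was 4 higher and 1 lower, with a median of 0.49. Over all 14892 genes tested there, 12.4% were higher and 12.7% lower. Of 8 Wnt ligands, R-spondins and secretion genes, the R-spondin Rspo1 alone passed (−0.74, adjusted p = 0.045). Of 14 core genes, 6 were lower and none higher, among them the receptors Fzd8 (−1.60, adjusted p = 0.0011), Fzd4 (−0.90, adjusted p = 0.0013) and Fzd7 (−0.78, adjusted p = 0.0145) and the co-receptor Lrp5 (−0.66, adjusted p = 0.019). Over the 3 lists 11 of the 32 genes tested against AAV9.empty were called, where 14.3% of all 14876 genes were lower and 13.8% higher.

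With the E332K vector, Sp5, a transcription factor induced by beta-catenin, was the 1 target called (2.36, adjusted p = 0.015, at a mean of 2.35 CPM against 0.456 CPM with AAV9.empty, a gene that passed the filter only through the E332K vector livers and so had to differ), 1 of the 8 ligand genes was lower (Rspo1, −1.32, adjusted p = 0.047), and of the core genes Fzd4 (−0.76, adjusted p = 0.0022) and Fzd7 (−0.73, adjusted p = 0.0037) were lower and Fzd5 (0.34, adjusted p = 0.047) higher. In all, 5 of the 33 genes of the 3 lists tested with the E332K vector were called, a count that includes Sp5, which had to differ. This was close to the share over all genes, 7.09% lower and 7.93% higher. Fzd4 was the 1 Wnt-related gene called with rAAV9-ST3GAL5.v2 (−0.44, adjusted p = 0.036), where 2.5% of all genes were lower and 2.88% higher. Of the 32 genes of these 3 lists that passed the filter, edgeR called 0 for AAV9.EGFP against AAV9.empty, with 8 at an unadjusted p under 0.05, and 0 for AAV9.empty against PBS, with 6.

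Of 11 regulators of periportal genes, among them the glucagon receptor and liver transcription factors (Hnf4a is also 1 of the hepatocyte markers), 7 were lower and 1 higher with rAAV9-ST3GAL5.v1 against AAV9.empty. Over all genes 14.3% were lower and 13.8% higher. Cebpb, a transcription factor of the acute-phase response, was higher (2.05, adjusted p = 0.0015), whereas Foxo1, a transcription factor of gluconeogenesis (−0.52, adjusted p = 0.0045), and Cebpa, one of mature hepatocytes (−0.83, adjusted p = 0.0099), were lower. Cebpb was also higher with AAV9.EGFP (0.73, adjusted p = 0.0052). With the E332K vector, Ppargc1a, a coactivator of gluconeogenic genes (−1.32, adjusted p = 0.00077), Cebpa (−0.45, adjusted p = 0.016) and Foxo1 (−0.39, adjusted p = 0.033) were lower, and Gcgr, the glucagon receptor, was higher (0.59, adjusted p = 0.0019), as it was with rAAV9-ST3GAL5.v2 (0.36, adjusted p = 0.032).

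Markers of other liver cells moved beside these results. With rAAV9-ST3GAL5.v1 against AAV9.empty, 3 of 5 cholangiocyte markers and 2 of the 4 T and NK cell markers tested were higher with none lower, 3 of 6 Kupffer cell markers were lower with none higher, and of 8 erythroid markers 1 was higher. The sum of the cholangiocyte markers was 115 to 162 CPM in rAAV9-ST3GAL5.v1 livers and 40.7 to 61.1 CPM in AAV9.empty livers, and that of the erythroid markers was 25797 to 30763 CPM in rAAV9-ST3GAL5.v1 livers, overlapping 25257 to 30820 CPM in AAV9.empty livers. Of 6 sinusoidal endothelial markers 2 were higher and 1 lower, and of 6 stellate cell markers 1 was higher and 2 lower. Over all genes 14.3% were lower and 13.8% higher in that comparison. With the E332K vector 1 of the 8 hepatocyte markers, 2 of the 6 Kupffer cell markers, 1 stellate cell marker and 1 cholangiocyte marker were lower, and 3 of the 7 neutrophil markers, 2 of the 8 erythroid markers and 1 sinusoidal endothelial marker were higher. With rAAV9-ST3GAL5.v2 no hepatocyte marker was called, 3 of the 6 Kupffer cell markers were lower and 2 of the 8 erythroid markers were higher. The shares over all genes were 7.09% lower and 7.93% higher with the E332K vector, and 2.5% lower and 2.88% higher with rAAV9-ST3GAL5.v2. Of 50 marker genes edgeR called 0 with AAV9.EGFP, with 11 at an unadjusted p under 0.05. No marker was at 0 in all libraries of a group, and the part of these cells in the results was not tested.

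For each member, the gene with the most similar pattern was found among 15872 others, as the smallest root mean square difference between centred log2 CPM means of the 6 groups. The patterns nearest to the pericentral genes were those of Tek for Glul (0.052), Cdk18 for Oat (0.035), Atp8a2 for Slc1a2 (0.069), Akr1d1 for Tbx3 (0.037), Dio3 for Axin2 (0.030) and Aadac for Rgn (0.038). Tek encodes an endothelial receptor, Akr1d1 a reductase of bile acid synthesis and Aadac a hepatocyte esterase. Those nearest to the periportal genes were Pde6c for Hal (0.061), Gm46516 for Sds (0.13), Sult1d1 for Gls2 (0.097) and Ulk2 for Hsd17b13 (0.044). With 6 group means to match, likeness is a description only.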

How the data were processed

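Liver RNA was selected with oligo(dT), with a step of rRNA removal according to the labels, and sequenced with a kit that does not keep the strand. Per the labels the authors trimmed reads with Trimmomatic, aligned them with STAR and counted them with RSEM on mm10. The GENCODE release is not given in the sources used here. The authors deposited RSEM's expected counts per gene, which are not scaled for depth, and TPM, which are scaled to transcript length and depth. Expected counts share out reads that match several genes.

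The 10 members and the 16 gene lists were chosen with earlier results of these data known. Expected counts were rounded to whole numbers, and each pair of groups was fitted alone in R 4.3.3 with edgeR 4.0.16 (TMM factors, filterByExpr, quasi-likelihood F-test). The p-values were adjusted by Benjamini-Hochberg over all genes tested, with a threshold of 0.05. All 10 members passed the filter in all 9 comparisons. A 95% interval uses the SE of that fit and its degrees of freedom. Levels are CPM with TMM factors over 22 libraries.

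All members were named, of the other zonation and Wnt lists up to 4 genes with the smallest adjusted p in a comparison and genes counted singly, and for each member the gene most alike. Gm47283, Cldn2 with rAAV9-ST3GAL5.v1 and Cps1 with the E332K vector were named after their values were seen, and 1 gene that the rule names is not reported here. Alternatives were DESeq2 1.42.0, other size factors and filters, 1 fit of all groups, a replicate block, a robust dispersion, limma 3.58.1 on log2(TPM + 1) or log2(TPM + 0.1), Gm47283 as a covariate and each library left out. The fit was also run on simulated counts with the same dispersion for every gene, which does not measure its error rates on these data.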

Additional observations from a re-analysis of the deposited data

Results flagged for a closer look

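Glul in AAV9.EGFP replicate 4 stood apart from the other livers of its group, at 324.5 CPM, where the nearest was at 372 CPM and the highest at 378 CPM. The gap took up 0.901 of the range of the group. Of the 10 genes in the groups of 4 livers, 40 such sets of values were examined by Dixon's criterion, which flags about 1 in 20 by chance, and none other stood apart. The groups of 3 livers were not examined, among them rAAV9-ST3GAL5.v1, whose replicate 2 was high for Glul.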

How the results depend on the processing

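The count of members called changed by more than 1.5 times in these cases, and the cause was not tested unless given. With limma on log2(TPM + 1) without a filter it was 4 for rAAV9-ST3GAL5.v1 against AAV9.empty (8 in edgeR) and 4 against AAV9.EGFP (7), 2 against rAAV9-ST3GAL5.v2 (6) and 1 against the E332K vector (5). With the filter it was 3 against rAAV9-ST3GAL5.v2 and 1 against the E332K vector, with either pseudocount, where Slc1a2, called in edgeR, was below the filter and not tested. Gm47283 as a covariate gave 2 for rAAV9-ST3GAL5.v1 against AAV9.empty and 2 against rAAV9-ST3GAL5.v2, and could not be fitted against PBS or the E332K vector, where it follows the groups. Against AAV9.EGFP that covariate left the count at 7. DESeq2 gave 5 for the E332K vector (3 in edgeR) and 1 for AAV9.EGFP (0) against AAV9.empty. Without a filter on low counts these were 7 for the E332K vector and, for the capsid against PBS, 1 (0). With each library left out, counts were 0 to 1 for AAV9.empty against PBS, 1 to 6 with rAAV9-ST3GAL5.v1 set against rAAV9-ST3GAL5.v2, and 0 to 5 with it set against the E332K vector.

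The replicate numbers did not pair the livers: of 30 same-numbered pairs, 7 had deviations correlated above 0.1 (range −0.17 to 0.28), and in 0 of the 9 comparisons did all pairs. With the replicate number as a block, the count was 0 with rAAV9-ST3GAL5.v1 set against rAAV9-ST3GAL5.v2 and 1 for AAV9.empty against PBS. In the other 7 comparisons it was within 1.5 times.

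Over the 90 single values, 853 of the alternative values kept direction and side of the threshold, 50 lost the call, 29 gained it and 22 uncalled values changed sign. With 1 library left out, these were 572, 43, 10 and 25. No called value changed sign. limma on TPM, which has no further scaling, moved the median of all genes by up to 0.20 on the log2 scale (rAAV9-ST3GAL5.v1 set against rAAV9-ST3GAL5.v2 or the E332K vector). Depth limits Slc1a2, at 5 to 57 counts per library.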
